A study of Homo sapiens with 7 samples.

Results

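TE5 and KYSE140 are established cell lines of esophageal squamous cell carcinoma. In each line, the cells that carried the shRNA against TP63 (shTP63, labelled shp63-ma) were compared directly with those that carried the shRNA against SOX2 (shSOX2, labelled shsox2-1). All shRNAs were delivered in a lentiviral vector. The comparison used 4 of the 7 RNA-Seq libraries of the series, namely 1 library per shRNA and line, and the scramble shRNA libraries did not enter it. Both silenced cultures of a line were sequenced on the same flow cell and lane, so that the lane is not mixed with the shRNA within a line. Each line stands in for a replicate here, and no library has a repeat culture of its own, so that culture and shRNA cannot be told apart within a line.

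TP63 encodes p63, a p53-family transcription factor that maintains basal cells of stratified epithelia. SOX2 encodes a high-mobility-group transcription factor of the foregut and of stem cells. Both genes lie on the long arm of chromosome 3, which is often amplified in squamous carcinomas, and both proteins are known to occupy many of the same regulatory regions. A direct comparison of the silenced cells shows where the transcriptomes differ once features shared by both silenced states are left aside.

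The 4 libraries held 80528680 to 98036494 estimated counts. In each line the shTP63 library was the deeper one (98036494 against 80528680 in TE5, 97759688 against 81695532 in KYSE140). Values below are estimated counts summed per gene and scaled between libraries (normalized counts), and differences are log2 ratios of shTP63 over shSOX2 within a line, after adding 1 to each value. Intervals are 95% intervals for counting error alone. Squamous carcinoma markers were present in both lines, with all 8 listed genes measured in both, although KRT14 was low in TE5 (25.9 and 7.5 normalized counts). Of the glandular, leukocyte, endothelial, fibroblast and melanocyte markers, 0 of 6, 1 of 5, 2 of 4, 4 of 6 and 2 of 3 were measured in both lines, and TFF3 was at 0 in all 4 libraries. Their summed levels over the 4 libraries ran from 0 to 981 normalized counts for the glandular list, 370 to 8563 for the leukocyte list, of which CD68 held the most, 446 to 1898 for the endothelial list, 3089 to 8898 for the fibroblast list, of which COL1A1 held the most, and 419 to 515 for the melanocyte list. Their part in the differences below was not tested.

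The silenced genes were read first. TP63 (chr3:189349178-189615065, plus strand, GRCh37) stood at 7265 normalized counts in TE5 shTP63 and 32081 in TE5 shSOX2. In KYSE140 it stood at 12920 and 61724. TP63 was thus 4.42-fold lower in TE5 and 4.78-fold lower in KYSE140 with the TP63 shRNA (log2 ratios of -2.14, interval -2.18 to -2.11, and -2.26, interval -2.28 to -2.23). SOX2 (chr3:181429713-181432224, plus strand, GRCh37) stood at 8609 normalized counts in TE5 shTP63 and 4892 in TE5 shSOX2, and at 30889 and 22418 in KYSE140. The SOX2 difference was 1.76-fold in TE5 and 1.38-fold in KYSE140 (log2 ratios of 0.82 and 0.46), smaller than that of TP63 in both lines. Both target genes differed in the direction of their labels.

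The scramble libraries, sequenced in other lanes, place these levels. A ratio of shTP63 over shSOX2 alone does not tell which silenced state departs from scramble. TP63 stood at 27764 normalized counts in the TE5 scramble library and 50686 in the KYSE140 scramble library, below the shSOX2 library of the same line. SOX2 stood at 12425 and 30281, above the shTP63 library in TE5 and just below it in KYSE140. SOX2-OT, the long noncoding RNA that overlaps SOX2, went with SOX2 at 1143 against 339 normalized counts in TE5 and 2332 against 827 in KYSE140 (log2 ratios of 1.75 and 1.49).

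With edgeR's quasi-likelihood test and the line as a block, 0 of 29488 genes and transcripts passed an adjusted p of 0.1 in either direction (0% higher and 0% lower in shTP63). The smallest adjusted p was 0.438, while 1399 were higher and 1551 lower at an unadjusted p under 0.05. Only 1 residual degree of freedom was left in this fit. Restricted to the 16494 features that reached 50 counts in each of the 4 libraries, the same test called 112 higher (0.679%) and 152 lower (0.922%). DESeq2 called 560 higher (3.31%) and 1008 lower (5.96%). TP63 itself had an adjusted p of 0.44 in the first edgeR fit, 0.067 among genes with at least 50 counts, and 1.4e-38 in DESeq2. For SOX2, edgeR gave 0.46 and 0.15 and DESeq2 0.036. The gene-level differences below are therefore described within each line, and a call is stated only for the edgeR fit with at least 50 counts or for DESeq2.

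Of 24561 genes measured in TE5, 3725 (15.2%) were at least 2-fold higher in the shTP63 library and 1421 (5.79%) at least 2-fold lower. Of 22051 measured in KYSE140, 2394 (10.9%) were higher and 1430 (6.48%) lower. In both lines at once, of 20523 genes, 590 (2.87%) were higher and 252 (1.23%) lower, and 289 (1.41%) passed 2-fold in opposite ways. At 1.5-fold the same-way counts were 1696 (8.26%) and 841 (4.1%). Higher values made up 72.4% of the genes past 2-fold in TE5, 62.6% in KYSE140 and 70.1% in both, and without scaling for depth 88.3%, 83.8% and 93.6%. Most of the excess lay at low counts, since among 14695 genes with a mean of at least 100 normalized counts 202 were higher and 162 lower in both lines, with 66 opposite. The rank correlation between the log2 ratios of the lines over those 14695 genes was 0.43. Genes share these 4 libraries and are not independent. The log2 ratio was above 0 in both lines for 34.8% of the 20523 genes, below 0 in both for 29.4%, and of opposite signs for 35.9%. Without scaling for depth every log2 ratio is 0.36 higher in TE5 and 0.39 higher in KYSE140, and the medians over all genes move with it, from 0.049 and 0.024 to 0.40 and 0.41. Gene lists are therefore read beside these medians and shares, and a list median within 0.36 below 0 in TE5 or 0.39 below 0 in KYSE140 is above 0 without scaling.

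**Figure D1:**
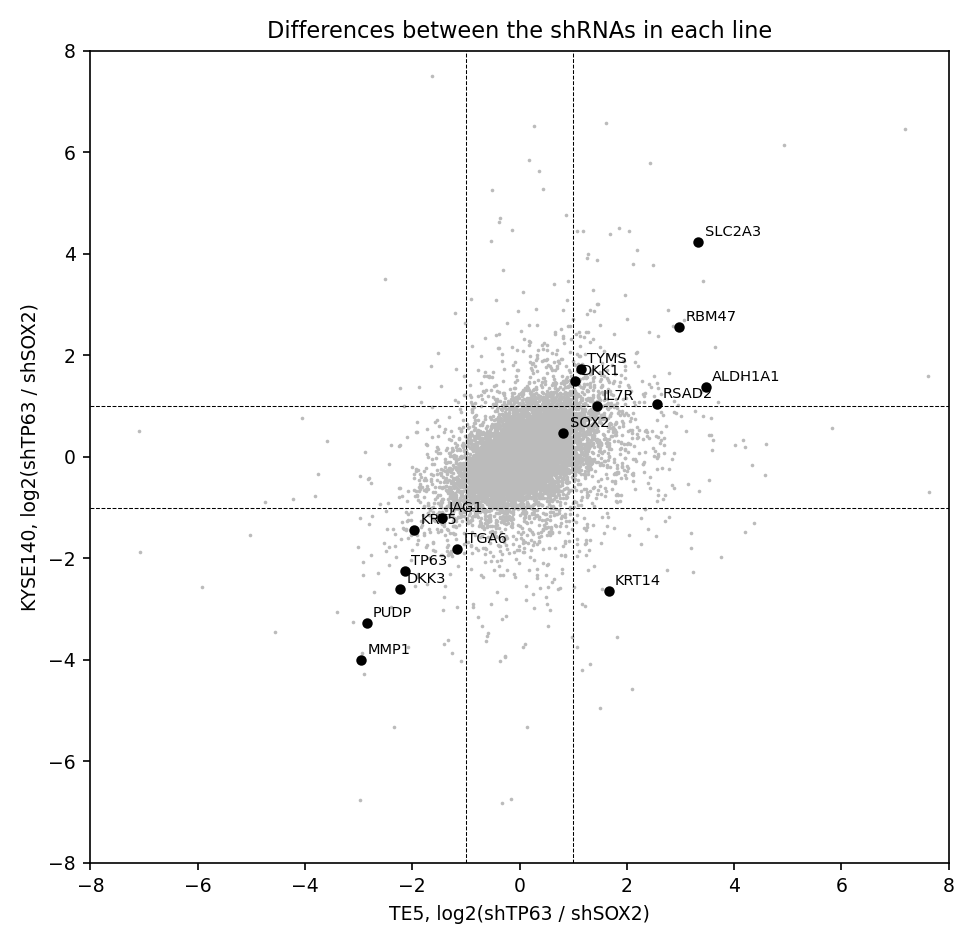
Each point is 1 of 15058 genes with a mean of at least 100 normalized counts in the higher group, at its log2 ratio of shTP63 over shSOX2 in TE5 (x axis) and KYSE140 (y axis). Dashed lines mark 2-fold, 6 genes lie outside the axes, TP63 sits at the lower left at -2.14 and -2.26, and KRT14 sits at the lower right at 1.66 and -2.65.

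The genes furthest above 0 in both lines were led by a glucose transporter and an RNA-binding protein among those with high counts. SLC2A3, which encodes the neuronal-type glucose transporter GLUT3, stood at 7201 normalized counts in TE5 shTP63 and 714 in TE5 shSOX2, and at 108320 and 5764 in KYSE140. It was thus 10.1-fold and 18.8-fold higher in the shTP63 libraries (edgeR with at least 50 counts, adjusted p = 0.067), and its scramble levels of 1897 and 31833 lay between the silenced states in both lines. Other genes hold 28.0% of its 31-base words, and its level is uncertain to that extent. RBM47, an RNA-binding protein of epithelial cells, stood at 8315 against 1059 normalized counts in TE5 and 3555 against 602 in KYSE140 (log2 ratios of 2.97 and 2.56, edgeR with at least 50 counts, adjusted p = 0.067). In the scramble libraries RBM47 stood at 6071 and 2100, nearer to shTP63 than to shSOX2.

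The other genes at this end were low in 1 or more libraries. FOXJ1, the master transcription factor of motile cilia, stood at 469 against 42.7 normalized counts in TE5 but only 23.7 against 1.24 in KYSE140, where the interval of its log2 ratio ran from 1.65 to 9.62. The antisense RNA RNF157-AS1, whose gene overlaps that of FOXJ1 on the opposite strand, stood at 264 against 38.1 and 72.0 against 8.78. Reads of the pair may not be told apart without strand. PODXL, a sialomucin of the cell surface, stood at 201 against 23.2 in TE5 and 377 against 57.6 in KYSE140. Transcripts that the annotation does not list, but that stand between PODXL transcripts in the files, would make up 70.6% of its counts, and with them the edgeR log2 difference is 0.17 in place of 2.89, so that the PODXL difference rests on the listed transcripts. GLIS3-AS1, KLHDC7A, TCIM, SVIP and FAM230A completed the set, with 12.7 to 122 normalized counts in KYSE140 shTP63 for all but KLHDC7A (11.4), and SVIP was at 0 in KYSE140 shSOX2, so that it was at least 3.42-fold higher in KYSE140 shTP63 against a floor of 3 counts.

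The genes furthest below 0 in both lines included secreted and matrix proteins. DKK3, a secreted protein of the Dickkopf family, stood at 977 against 4583 normalized counts in TE5 and 2266 against 13760 in KYSE140 (log2 ratios of -2.23 and -2.60, edgeR with at least 50 counts, adjusted p = 0.067). Other genes hold 46.5% of its 31-base words. PUDP, a pseudouridine phosphatase, stood at 619 against 4480 in TE5 and 210 against 2047 in KYSE140 (log2 ratios of -2.85 and -3.28, same test, adjusted p = 0.067). TNC, the matrix glycoprotein tenascin-C, stood at 85.1 against 647 in TE5 and 3285 against 16586 in KYSE140 (adjusted p = 0.070 in that edgeR test). For PUDP and TNC the scramble levels (2558 and 982, 273 and 5586) lay between the silenced states of both lines.

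MMP1, the interstitial collagenase, was 7.77-fold lower in TE5 (1026 against 7973 normalized counts) and 18.8-fold lower in KYSE140, where it was low (5.68 against 106). In the scramble libraries it stood at 13891 and 18.7, above both silenced states in TE5 and between them in KYSE140. STAR, which carries cholesterol into mitochondria for steroid synthesis, stood at 5.31 against 148 and 39.6 against 445. SOST, the Wnt antagonist sclerostin, stood at 228 against 1505 and 26.5 against 173. NIPAL4, a magnesium transporter of the epidermis, and CPA4, a carboxypeptidase, were called by edgeR with at least 50 counts (adjusted p = 0.074 each), with log2 ratios of -2.40 and -2.95 for NIPAL4 and -2.63 and -2.29 for CPA4. The noncoding RNAs LUARIS and MSC-AS1 were lower as well (21.7 against 193 and 36.4 against 279 in TE5), and MSC-AS1 was at 0 in KYSE140 shTP63 (18.3 in shSOX2).

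**Figure D2:**
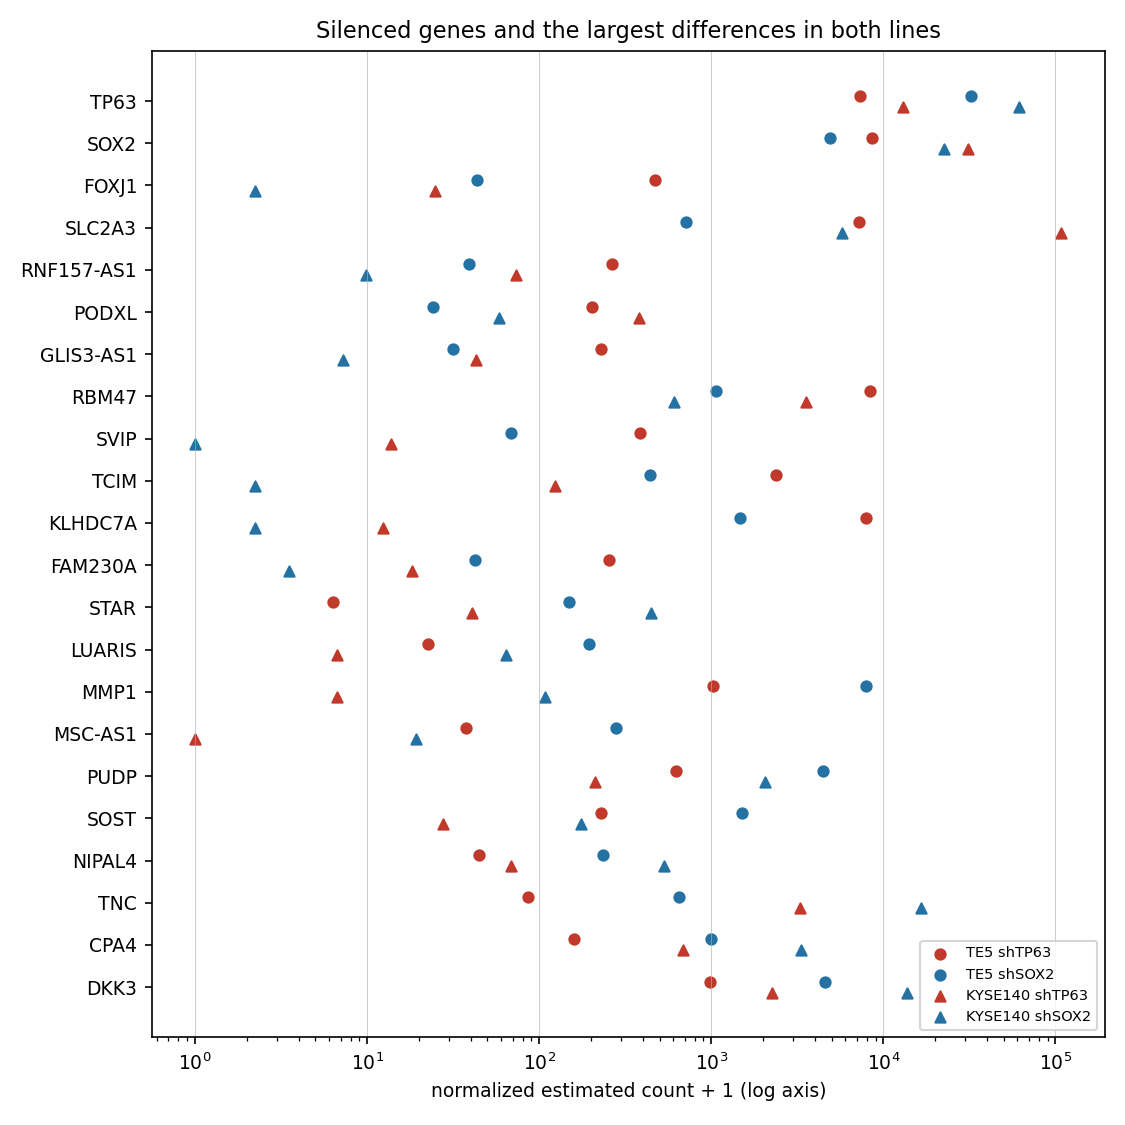
Normalized estimated counts plus 1 (log axis) of TP63, SOX2 and the 10 genes at each end, with 1 point per library (circles TE5, triangles KYSE140, red shTP63, blue shSOX2). From FOXJ1 to FAM230A the red point lies right of the blue one in both lines, and from STAR to DKK3 left of it, by the rule that chose them.

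Short words in 3′ UTRs were then read, because different shRNAs were compared. As background, an shRNA is cut to a small RNA that can lower mRNAs whose 3′ UTR pairs with its seed, in the manner of a miRNA. The log2 ratios of 11340 genes, each with 100 counts or more in all 4 libraries, were adjusted by a linear fit for the length and GC share of the 3′ UTR and for mean level, and genes with and without each of 16155 words of 7 bases were compared. In TE5 the lowest word was AGAACAC, carried by 1282 genes (11.3%), whose mean log2 ratio was 0.27 below that of the other genes. In KYSE140, which did not choose it, the same word ranked 2 from the low end, with a difference of -0.19. The highest word in TE5 was GAAGGAT, carried by 1190 genes (10.5%), with a difference of 0.18. It ranked 1 in KYSE140 too, with 0.19. Choosing in KYSE140 and reading in TE5 gave GAAGGAT again at the high end, and TAGCGGC at the low end, which ranked 3197 in TE5 with a difference of -0.032.

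The differences grew with the number of copies. Genes with 1 copy of AGAACAC were 0.26 below genes with none in TE5 and 0.18 below in KYSE140 (1119 genes), and those with 2 or more copies 0.34 and 0.28 below (163 genes). For GAAGGAT, 1038 genes with 1 copy stood 0.17 above genes with none in both lines, and 152 genes with 2 or more copies stood 0.24 and 0.28 above. Against the scramble library of each line, carriers of AGAACAC were lower in the shTP63 library by 0.26 in TE5 and 0.18 in KYSE140, and differed by 0.0026 and 0.011 in the shSOX2 library. Carriers of GAAGGAT were lower in the shSOX2 library by 0.17 in both lines and differed by 0.0035 and 0.014 in the shTP63 library. In both lines, AGAACAC went with the shTP63 library and GAAGGAT with the shSOX2 library. The same scramble library enters both values of a line.

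Genes with a word made up a large share of the strongest differences. The words were chosen from the TE5 ratios of these same genes, so that some excess was built in. The shares below are not adjusted for the length of the 3′ UTR. Of the 82 genes with a 3′ UTR read that were at least 2-fold higher in both lines, 38 (46.3%) carried GAAGGAT, against 10.5% of all 11340. Of the 110 that were at least 2-fold lower, 34 (30.9%) carried AGAACAC, against 11.3% of all. Among the genes called by edgeR with at least 50 counts, 45 of 92 higher genes (48.9%) carried GAAGGAT and 47 of 120 lower genes (39.2%) carried AGAACAC. Among the 9124 genes with neither word, 42 (0.46%) were 2-fold higher and 72 (0.789%) 2-fold lower in both lines. The shRNA sequences were not used here, and whether either word matches a seed was not tested. Read over whole transcripts, the most abundant TP63 transcript held AGAACAC 1 time and GAAGGAT 0 times, and that of SOX2 held each 1 time. AGAACAC was in 23.6% and GAAGGAT in 26.1% of the 11340 transcripts.

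**Figure D3:**
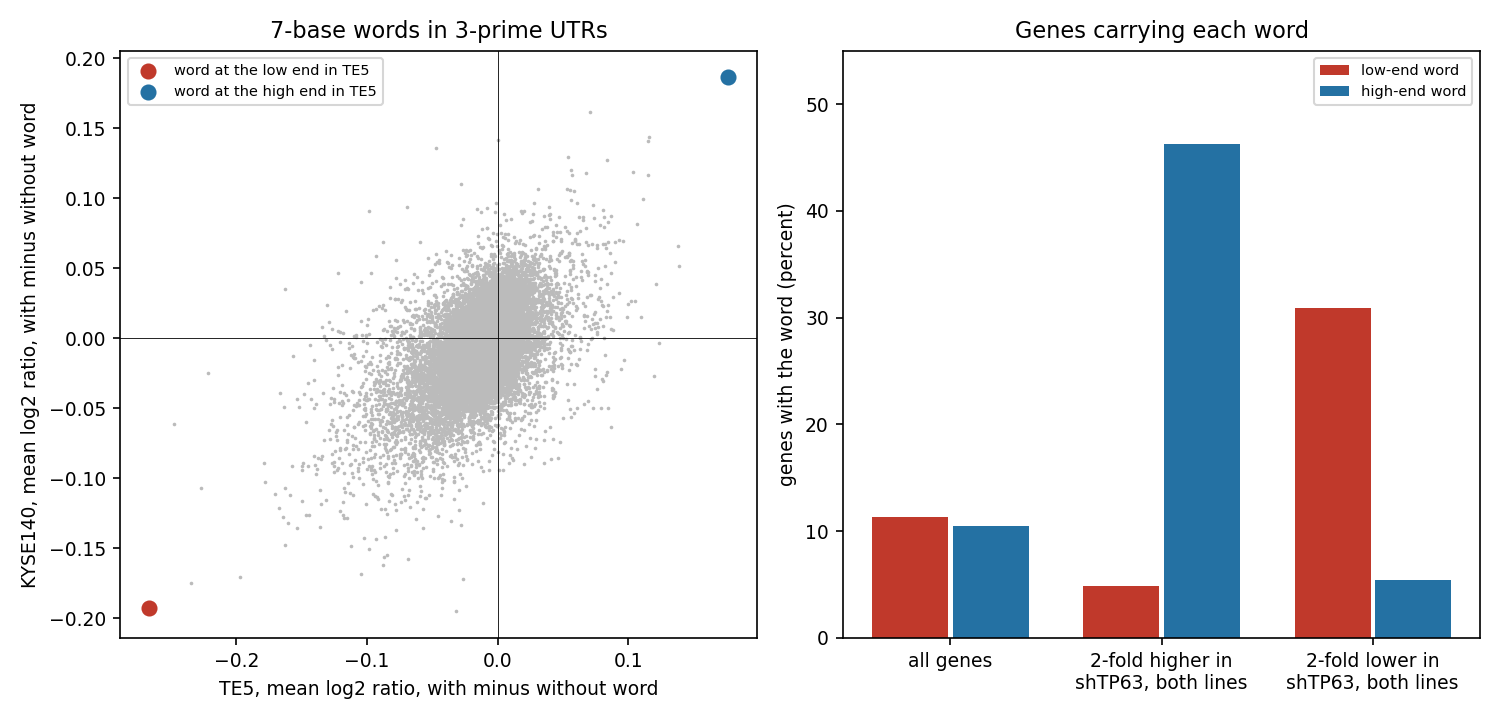
Left, the mean log2 ratio of genes with a word minus that of genes without, for 16155 words of 7 bases in 3′ UTRs, in TE5 (x axis) and KYSE140 (y axis), where the low-end word lies at -0.27 and -0.19 and the high-end word at 0.18 and 0.19. Right, the percent of genes that carry each word among all 11340 genes, the 82 at least 2-fold higher and the 110 at least 2-fold lower in shTP63 in both lines.

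Sites of named genes show the words in place, in 3′ UTR sequence of GRCh37 written 5′ to 3′ on the strand of the gene, with the word in capitals. The first 4 genes were lower in shTP63 and the last 4 higher.
PUDP (chrX:6967467-6967489, minus strand): ctcctttaAGAACACtgatgggc
IL1A (chr2:113532445-113532467, minus strand): ttatttaaAGAACACcctatatt
DSC3 (chr18:28570098-28570120, minus strand): aagtacatAGAACACtgcctgca
ITGA6 (chr2:173370411-173370433, plus strand): gaaagaatAGAACACagtttgta
RBM47 (chr4:40425837-40425859, minus strand): cttctagtGAAGGATtgtcacag
TYMS (chr18:673009-673031, plus strand): aggagctcGAAGGATattgtcag
ERBB3 (chr12:56496120-56496142, plus strand): ggagatatGAAGGATtactctcc
ID2 (chr2:8824162-8824184, plus strand): gaataccaGAAGGATccagtatt
ERBB3 held 2 copies, and the other 7 genes 1 copy each. Of the 119 genes named by rule, 83 had a 3′ UTR read. Of the 83, 56 were lower and 27 higher in both lines. AGAACAC was in 9 of the 56 lower genes and in 1 of the 27 higher, SOX2. GAAGGAT was in 6 of the 27 higher genes and in 3 of the 56 lower, namely TXNRD1, DST and HES2. Over all 11340 genes, 11.3% carried AGAACAC and 10.5% GAAGGAT. SLC2A3, DKK3, TNC and CPA4, among the genes furthest from 0, carried neither word. Without scaling for depth, DST is above 0 in both lines and TXNRD1 in KYSE140.

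Transcription factors of squamous cells leaned low in the shTP63 libraries. Of 21 listed and measured, 5 were at least 1.5-fold lower in both lines and 0 higher, against 4.1% and 8.26% of all 20523 genes. The medians were -0.26 in TE5 and -0.32 in KYSE140, against 0.049 and 0.024 over all genes. The 5 were TP63, BNC1, ZNF750, TP73 and SOX15. The edgeR fit with at least 50 counts called 4 lower and 0 higher, TP63 among them, and DESeq2 called 7 lower and 1 higher, SOX2. Of all features, that edgeR fit called 0.922% lower and 0.679% higher, and DESeq2 5.96% and 3.31%. The list counts include both silenced genes, whose directions follow from the shRNAs compared. BNC1, a zinc-finger factor of basal keratinocytes, stood at 1770 against 4300 normalized counts in TE5 and 879 against 3164 in KYSE140 (adjusted p = 0.087). ZNF750, a p63-induced factor of epidermal differentiation, stood at 196 against 533 and 731 against 2807 (adjusted p = 0.092). TP73, the p53-family relative of TP63, stood at 1812 against 3468 and 2539 against 6070 (adjusted p = 0.096), and it carries AGAACAC. BNC1, ZNF750 and SOX15 carry neither word. The p-values are from the edgeR fit with at least 50 counts in every library.

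Among keratins of stratified epithelia, the basal-cell keratin KRT5 stood at 22020 against 86034 normalized counts in TE5 and at 627330 against 1708300 in KYSE140, 1.97 and 1.45 lower on the log2 scale (edgeR with at least 50 counts, adjusted p = 0.086, DESeq2 0.73). The KRT5 scramble levels, 74377 and 1043900, lay between the silenced states. KRT15, another basal keratin, was 0.45 lower in TE5 and 1.58 lower in KYSE140. KRT75 was lower in both lines at low counts (121 against 603 and 39.7 against 158), and KRT80 was higher in both (44453 against 29762, and 7300 against 2176). KRT13, a keratin of the suprabasal esophagus, stood at 5321 against 3405 in TE5 but 2852 against 15154 in KYSE140. Over the 14 keratins measured in both lines, the median was 0.30 in TE5 and -1.51 in KYSE140, and 7 of 14 had opposite signs, against 35.9% of all genes. The difference between the lines was not tested. Of 13 keratins tested, DESeq2 called KRT80 higher and KRT15 and KRT75 lower, against 3.31% higher and 5.96% lower of all features.

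The cornified envelope genes, which mark terminal differentiation, had a median of 0.44 in TE5 and -1.26 in KYSE140 over 24 genes. Of these, 16 had opposite signs, against 35.9% of all genes, and the edgeR fits called 0 of them in either direction. Of 18 tested, DESeq2 called SCEL higher and IVL, SPRR1B and KRTDAP lower, against 3.31% higher and 5.96% lower of all features. IVL, the envelope protein involucrin, was lower in shTP63 than in shSOX2 in both lines (981 against 1590 normalized counts in TE5, 15.1 against 161 in KYSE140). The IVL scramble level was 679 in TE5, below both silenced states, and 18.7 in KYSE140, near shTP63. SPRR1B, a cross-linked envelope precursor, stood at 38.4 against 62.0 in TE5 and 2156 against 11128 in KYSE140. Its scramble levels were 48.1 and 2553, in KYSE140 nearer to shTP63 than to shSOX2. PI3, the protease inhibitor elafin, was higher in both (log2 ratios of 1.51 and 0.67).

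Hemidesmosomes and desmosomes anchor epithelial cells to the basement membrane and to each other. Of 23 hemidesmosome genes, 9 were below 0 in both lines, 1 above and 13 of opposite signs, and of 13 desmosome genes 7 were below, 1 above and 5 opposite. Over all genes, 29.4% were below 0 in both lines, 34.8% above and 35.9% of opposite signs. ITGA6, the integrin chain of hemidesmosomes, stood at 16702 against 37391 normalized counts in TE5 and 11748 against 41394 in KYSE140 (log2 ratios of -1.16 and -1.82, edgeR with at least 50 counts, adjusted p = 0.087). Its partner ITGB4 was lower by less (-0.37 and -0.75), as was COL7A1, the anchoring-fibril collagen (-0.51 and -0.68). The list median was -0.032 in TE5 and -0.56 in KYSE140, and that of the desmosome list -0.034 and -0.83. Among desmosome genes, DSC3 stood at 4714 against 11272 in TE5 and 28572 against 111400 in KYSE140 (adjusted p = 0.087 in the same edgeR fit). DSG3, DSG2 and PKP1 had log2 ratios of -0.39, -0.57 and -0.48 in TE5, against -1.41, -0.45 and -0.66 in KYSE140, and DESeq2 called all 3 (adjusted p of 0.045, 0.018 and 0.0071). Of 13 desmosome genes DESeq2 called 4 lower, against 5.96% of all features. For DSC3, DSG2 and DSG3 the scramble levels lay between the silenced states in both lines. Those of DSG3 were 17279 in TE5 and 17850 in KYSE140. PKP1 in the TE5 scramble library, at 22532, lay above both silenced states. ITGA6, DSC3 and PKP1 carry AGAACAC, and ITGB4, COL7A1, DSG2 and DSG3 carry neither word. The ITGB4 ratio in TE5 is close to the shift that scaling makes.

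**Figure D4:**
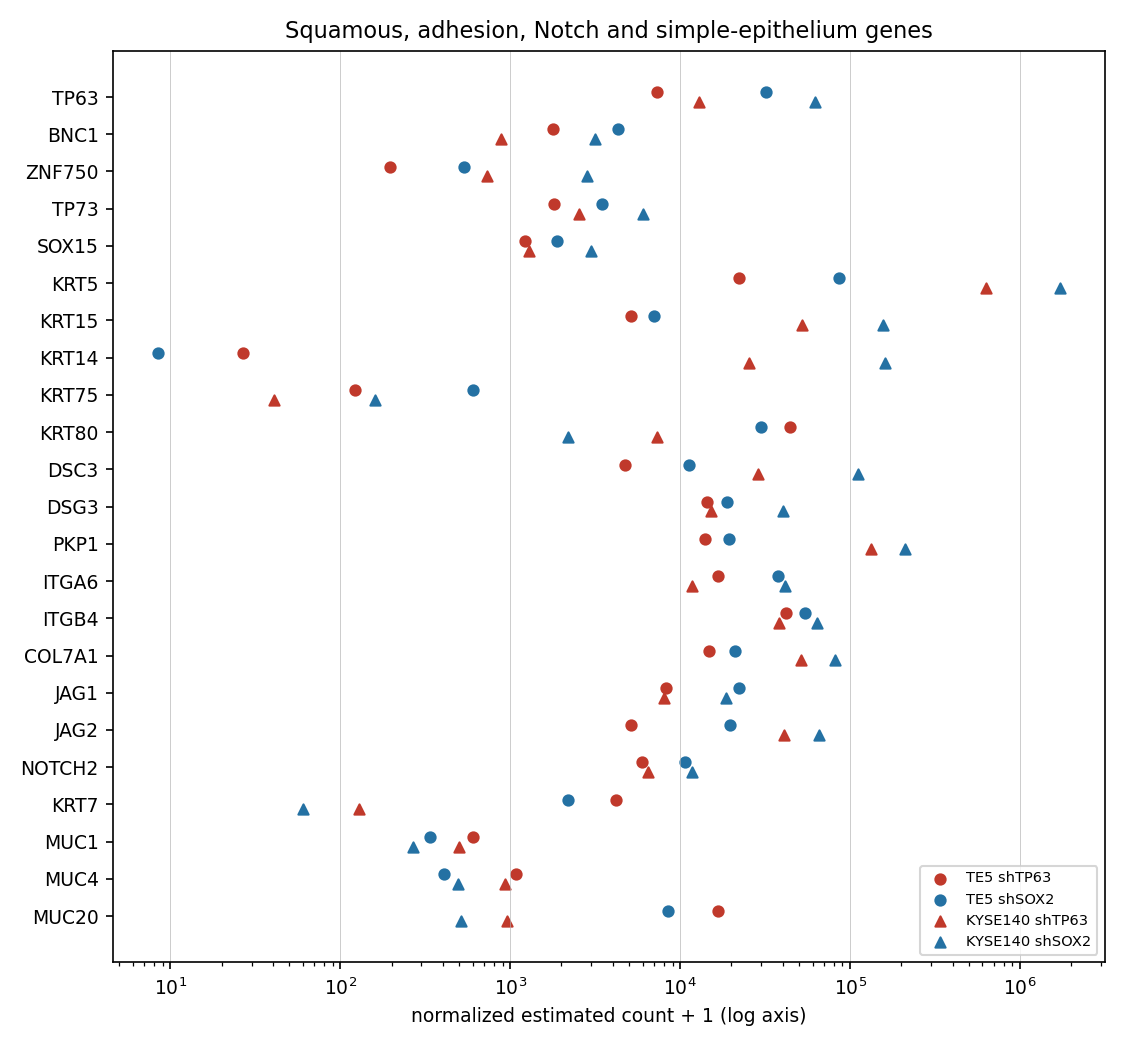
Normalized estimated counts plus 1 (log axis) of squamous factors, keratins, adhesion genes, Notch genes and genes of simple epithelia, with 1 point per library (circles TE5, triangles KYSE140, red shTP63, blue shSOX2). TP63 to SOX15, KRT5, KRT15, KRT75 and DSC3 to NOTCH2 lie lower in shTP63 in both lines, KRT80 and KRT7 to MUC20 lie higher, and KRT14 differs between the lines.

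Simple-epithelium keratins and mucins pointed the other way. Of 10 measured in both lines, 6 were at least 1.5-fold higher in the shTP63 libraries and 0 lower, against 8.26% and 4.1% of all genes. The medians were 0.96 and 0.90. DESeq2 called 5 of 8 tested higher, KRT7, KRT8, KRT18, MUC4 and MUC20, against 3.31% of all features. The edgeR fit with at least 50 counts called 1 of 6 higher, against 0.679%. That was MUC20, a membrane mucin, at 16634 against 8476 normalized counts in TE5 and 957 against 515 in KYSE140 (adjusted p = 0.092), although 27.8% of its 31-base words are shared with other genes. MUC4, a large membrane mucin, stood at 1080 against 407 and 923 against 491. KRT7, a keratin of glandular ducts, stood at 4191 against 2187 in TE5 and only 128 against 59.5 in KYSE140. MUC1 had log2 ratios of 0.84 and 0.92, with 73.5% of its counts on unlisted transcripts if these are added.

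In the Notch pathway the ligands JAG1 and JAG2 were lower and the ligand DLL4 higher. JAG1 stood at 8228 against 22303 normalized counts in TE5 and 7997 against 18460 in KYSE140 (log2 ratios of -1.44 and -1.21, edgeR with at least 50 counts, adjusted p = 0.074). JAG2 stood at 5115 against 19543 and 40988 against 65425 (DESeq2 adjusted p = 0.0049). The receptor NOTCH2 was lower by 0.84 and 0.87 on the log2 scale and the repressor HES2 by 1.11 and 0.82, both called by DESeq2 (adjusted p of 4.7e-05 and 0.0019). Of 22 measured genes of the pathway, these 4 were at least 1.5-fold lower in both lines and 1 was higher, DLL4 (log2 ratios of 1.38 and 0.81). The shares over all genes were 4.1% lower and 8.26% higher. The list medians were -0.027 and -0.29, and 10 of 22 genes had opposite signs, against 35.9% of all genes. HES2, lower in both lines, carries GAAGGAT, and JAG1, JAG2 and NOTCH2 carry neither word.

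The list of Wnt ligands and antagonists also held the transcription factor TCF7 and the receptor LGR6. Of its 23 measured genes, 5 were at least 1.5-fold lower in both lines (DKK3, WNT7A, WNT10B, WNT3 and TCF7) and 2 higher (DKK1 and LGR6), with medians of -0.40 and -0.42. Over all genes, 4.1% were lower and 8.26% higher by this measure. WNT7A, a ligand, stood at 1031 against 2739 normalized counts in TE5 and 343 against 751 in KYSE140 (DESeq2 adjusted p = 0.0010). DKK1, an inhibitor of Wnt receptors, went the other way from its relative DKK3, at 21069 against 10330 and 1253 against 443 (log2 ratios of 1.03 and 1.5, edgeR with at least 50 counts, adjusted p = 0.084).

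The EGF receptor and its relatives differed among themselves. EGFR stood at 39894 against 52428 normalized counts in TE5 and 86127 against 150730 in KYSE140 (log2 ratios of -0.39 and -0.81, DESeq2 adjusted p = 0.029, edgeR with at least 50 counts 0.23). The EGFR ratio in TE5 is close to the shift of 0.36 that scaling makes. The EGFR scramble levels, 48219 and 104580, lay between the silenced states in both lines. ERBB3, a receptor without an active kinase of its own, stood at 5114 against 2912 and 13480 against 7863 (log2 ratios of 0.81 and 0.78, DESeq2 adjusted p = 0.0010), and it carries GAAGGAT. The ligands BTC (1.45 and 0.78) and EGF (1.66 and 0.58) and the feedback inhibitor ERRFI1 (0.65 and 0.83) had positive log2 ratios in both lines. DESeq2 called ERBB3, BTC and ERRFI1 higher and EGFR lower, of 13 measured genes, against 3.31% higher and 5.96% lower of all features. ETV4, an ETS factor downstream of the MAPK cascade, stood at 1924 against 4499 and 2093 against 3017 (log2 ratios of -1.23 and -0.53, DESeq2 adjusted p = 0.045). FOSL1, the AP-1 subunit FRA-1, stood at 3871 against 16557 in TE5 and 240 against 441 in KYSE140 (DESeq2 adjusted p = 0.0018), and FOSL1 and FOSL2 both carry AGAACAC.

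Among genes of matrix turnover, TIMP3, an inhibitor of metalloproteases, stood at 11839 against 32882 normalized counts in TE5 and 1428 against 5459 in KYSE140 (log2 ratios of -1.47 and -1.93), and was called by edgeR with at least 50 counts (adjusted p = 0.074). Of 24 measured genes of the list, 5 were at least 2-fold lower in both lines (among them MMP1, MMP2, TIMP3 and ADAM19), against 1.23% of all genes, and 0 were 2-fold higher, while the medians of 0.054 and -0.12 lay near 0. TGFBR3, the TGF-beta coreceptor betaglycan, had a log2 ratio of -1.23 in both lines (823 against 1932 and 1175 against 2758, same test, adjusted p = 0.094). SNAI2, a zinc-finger factor of basal cells and of mesenchymal transition, had log2 ratios of -0.86 and -0.88 (DESeq2 adjusted p = 7.2e-05).

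Interferon-stimulated genes, which cells switch on against viruses, were higher in TE5 shTP63 than in TE5 shSOX2. All 38 measured genes were above 0 in TE5, 27 of them by at least 2-fold, with a median log2 ratio of 1.34. Of all genes measured in TE5, 15.2% were at least 2-fold higher, and the median over all genes was 0.049. In KYSE140 17 of the 38 were above 0 and the list median was -0.033, against 0.024 over all genes. MX1, an antiviral GTPase, stood at 51864 against 13313 normalized counts in TE5 and 88.4 against 90.1 in KYSE140. RSAD2, the antiviral enzyme viperin, stood at 28903 against 4904 in TE5 and at 20.6 against 9.55 in KYSE140, where the interval of its log2 ratio ran from -0.15 to 2.45. The summed level of the list was 1276500 against 493870 in TE5, with 721920 in its scramble library, and 46671 against 50482 in KYSE140. CXCL10, an interferon-induced chemokine, stood at 6672 against 877 and 71.0 against 38.4. The difference between the lines was not tested.

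Cytokine genes lay on both sides. IL1A, an alarmin of epithelial cells, stood at 3998 against 10573 normalized counts in TE5 and 353 against 904 in KYSE140 (log2 ratios of -1.40 and -1.35, edgeR with at least 50 counts, adjusted p = 0.074), and it carries AGAACAC. IL7R, the interleukin-7 receptor chain, stood at 21395 against 7914 and 1069 against 535 (1.43 and 1.00, adjusted p = 0.086 in that edgeR fit). The scramble levels of IL7R, 5438 and 317, lay below both silenced states.

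Among metabolic genes, TXNRD1, thioredoxin reductase, stood at 3015 against 5064 normalized counts in TE5 and 2372 against 2747 in KYSE140, with scramble levels of 9908 and 4069. Unlisted transcripts would make up 74.0% of its counts, and its KYSE140 difference of -0.21 turns positive without scaling for depth. Of 28 targets of NRF2, the antioxidant transcription factor, 16 were below 0 in both lines and 2 above (against 29.4% and 34.8% of all genes), with medians of -0.34 and -0.35. DESeq2 called 8 of 27 lower and 0 higher, against 5.96% and 3.31% of all features. Of 26 genes of glycolysis and the hypoxia response, 15 were below 0 in both lines and 2 above, with medians of -0.52 in TE5 and -0.067 in KYSE140, and DESeq2 called 1 in each direction. The shares of all genes and features just given are the background here too. AKR1B10, a reductase, stood at 3527 against 14980 and 12.4 against 179, and HMOX1, heme oxygenase, at 921 against 2136 and 909 against 1617. ALDH1A1, a retinaldehyde dehydrogenase, stood at 3479 against 313 in TE5 and 18926 against 7329 in KYSE140 (log2 ratios of 3.47 and 1.37, DESeq2 adjusted p = 0.00019). CYP2S1, a cytochrome P450, had log2 ratios of -1.36 and -1.42 (edgeR with at least 50 counts, adjusted p = 0.074).

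Amino acid genes split likewise. SLC7A5, the large neutral amino acid transporter, stood at 55829 against 179470 normalized counts in TE5 and 62996 against 139150 in KYSE140 (edgeR with at least 50 counts, adjusted p = 0.091). ASNS, asparagine synthetase, stood at 8175 against 4439 and 10771 against 3824 (adjusted p = 0.092 in that fit). In cholesterol synthesis MSMO1 was higher (15889 against 10310 and 12532 against 5336, DESeq2 adjusted p = 0.0083), while ELOVL6, which elongates fatty acids, was lower (2942 against 7249 and 1968 against 3435, DESeq2 adjusted p = 0.0012). The glucose transporter SLC2A1 had log2 ratios of -0.85 and -0.53, opposite to those of SLC2A3.

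The S phase list had medians of -0.19 in TE5 and 0.15 in KYSE140 over 42 genes, and the G2/M list -0.13 and 0.22 over 54. TYMS, thymidylate synthase, was the 1 of 42 S phase genes called by edgeR with at least 50 counts, against 0.679% higher of all features. It stood at 12476 against 5674 normalized counts in TE5 and 7239 against 2181 in KYSE140 (that edgeR fit, adjusted p = 0.076), and it carries GAAGGAT. Its scramble levels were 35374 and 7613. Of 29 p53 response genes, 15 were above 0 in both lines and 5 below, against 34.8% and 29.4% of all genes. GDF15, a stress cytokine, stood at 36783 against 21272 and 873 against 453 (same edgeR fit, adjusted p = 0.099). MDM2, the p53 ubiquitin ligase, had log2 ratios of 0.81 and 1.34 with a DESeq2 adjusted p of 0.10, and CDKN1A differed between the lines, at 43544 against 21252 and 18213 against 20949.

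**Figure D5:**
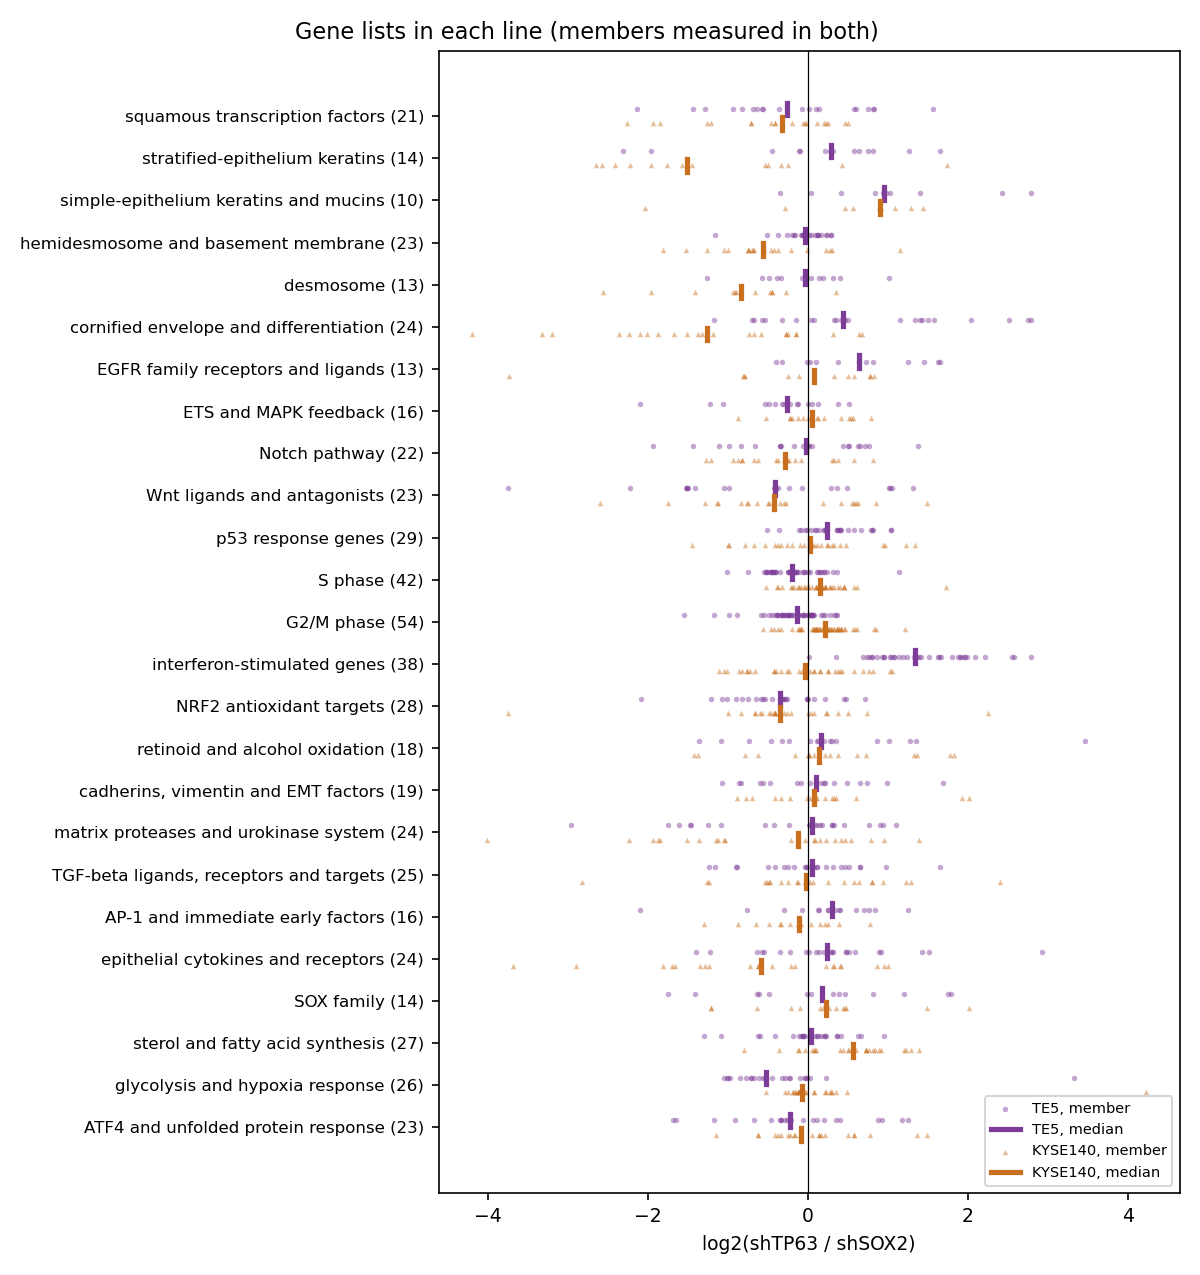
Log2 ratios of shTP63 over shSOX2 for the members of 25 gene lists that were measured in both lines (numbers in parentheses), with purple circles for TE5, orange triangles for KYSE140 and a bar for each median. The interferon-stimulated genes have medians of 1.34 in TE5 and -0.033 in KYSE140, and the simple-epithelium list has 0.96 and 0.90.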

How the data were processed

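RNA-Seq of total RNA was measured in 4 knockdown libraries, 1 per shRNA and line, with 2 scramble libraries used only to place levels, and the shCCAT1 library was not used. Per the study's methods, the authors quantified paired-end reads with kallisto against hg19 Ensembl transcripts, and deposited estimated counts and TPM per transcript. The TPM values deposited by the authors were not used. Estimated counts, which the authors did not normalize, were summed per gene here with the GENCODE annotation lifted to GRCh37 and rounded. Of 196354 transcripts, 13491 were not listed in it and stayed single features (93.5% to 93.7% of counts were assigned in the 4 libraries). CCAT1 is not listed apart in that annotation and was not analysed. 1 named gene is not reported here.

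Libraries were scaled by TMM. edgeR 4.0.16 quasi-likelihood fits in R 4.3.3 (filterByExpr, line as block, Benjamini-Hochberg adjusted p under 0.1) and DESeq2 1.42.0 were run over all features. Within lines, a gene needed 10 counts in 1 of the 2 libraries, and the pseudocount was 1. Gene lists were described by counts and medians. 3′ UTR words were read in the most abundant protein-coding transcript. Fits and words were tested on simulated data. Python 3.11.15, numpy 2.4.6, pandas 2.3.3 and matplotlib 3.10.9 were used.

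Named genes were the targets, CCAT1, TXNRD1, ETV4 and EGFR, up to 10 genes in each direction past the adjusted p, filled with those of the largest smaller within-line log2 ratio at a mean of 100 normalized counts or more, and up to 4 of each list, with pseudogenes passed over and genes sharing 50% of their 31-base words named only as uncertain. Lists, words and members were chosen with earlier results of these data known, and further genes given to name the members of a count or a difference between lines (KRT13, MX1, CDKN1A, SCEL, KRT8, KRT18, DLL4, LGR6, WNT3, WNT10B, ADAM19) were chosen after their values were seen. Samples are single cultures, so that no p-value measures the spread between cultures. With the line as block, p-values rest on how far the shRNA difference varied between lines and on spread estimates shared across genes. Depth limits low genes only, and intervals cover counting error alone. Alternatives comprised the normalization, the low-count filter, the test, the scramble libraries, the replicate block, the gene assignment, thinning and leaving out libraries.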

Additional observations from a re-analysis of the deposited data

Results flagged for a closer look

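The counting intervals of the log2 ratio (shTP63 over shSOX2) were read in both lines for 130 genes, those named by rule and the listed cell type markers. For 7 of them they lay above 0 in 1 line and below 0 in the other. Over all 20523 genes, 2858 (13.9%) did so. Genes named by rule shared a direction in both lines, so that all 7 were listed markers. The 7 of 130 is therefore not comparable with the share of all genes. With 1 library a side, the difference between the lines was not tested, and the intervals hold no error between cultures. KRT14, a basal keratin, had log2 ratios of 1.66 in TE5 and -2.65 in KYSE140, but its TE5 levels were 25.9 and 7.5 normalized counts against 25455 and 160050 in KYSE140. KRT6A, a keratin of activated epithelia, had 0.28 in TE5 and -0.53 in KYSE140. PERP, a desmosome protein, had 0.035 in TE5 and -0.27 in KYSE140. SFN, the 14-3-3 sigma protein, had 0.42 in TE5 and -0.79 in KYSE140. COL1A1, a fibrillar collagen chain, had 0.71 in TE5 and -0.33 in KYSE140. COL3A1, another such chain, had 0.25 in TE5 and -2.70 in KYSE140, where it stood at 5.55 and 41.4 normalized counts. CD68, a lysosomal protein, had 0.53 in TE5 and -2.56 in KYSE140. The other leukocyte markers PTPRC, CD3E and LYZ did not exceed 32.5 normalized counts in any of the 4 libraries.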

How the results depend on the processing

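The count of genes called by edgeR stayed at 0 in both directions with DESeq2 size factors, no scaling, no filter beyond 1 count, unassigned transcripts left out or given the gene of both neighbours, thinning to 1 depth, and when 1 library was left out of a fit with the scramble libraries (0 to 0). Without the replicate block, which is the line, it was also 0. The replicate numbers only name the lines, and both shRNAs share each line. It became 112 higher and 152 lower with at least 50 counts in every library, 560 and 1008 with DESeq2, and 1 higher with the scramble libraries included. The 50-count fit tested fewer, higher features and had a common dispersion of 0.0413 in place of 0.148, and 0.0594 without the unassigned transcripts. TP63 passed the threshold in the 50-count fit (-2.16) and with DESeq2 (-2.23), and SOX2 with DESeq2 (0.61).

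Counts past 2-fold (higher then lower, for TE5, KYSE140 and both lines) were 5828, 775, 4183, 810, 1483 and 102 without scaling. They were 6847, 4250, 5300, 4203, 1476 and 736 with a minimum of 1 count, and 6394, 3251, 4434, 2988, 1696 and 841 at 1.5-fold. With a minimum of 50 counts they were 1674, 701, 861, 671 and, higher in both lines, 207. With a pseudocount of 10 they were 2220, 918, 1297, 950 and, higher in both lines, 284. The word GAAGGAT gave 0.15 in TE5 and 0.16 in KYSE140 with the longest 3′ UTR, and 0.23 in KYSE140 with no fit. AGAACAC kept its sign in both lines in every alternative, with rank 121 in KYSE140 with no fit.

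For the 119 named genes, 1878 alternative values of the fits gave 0 changes of direction. Apart from the targets, TXNRD1, ETV4 and EGFR, genes were named only if both lines shared a direction. Few of these values could thus turn. In these fits no scaling keeps the library total. With counts as deposited, log2 ratios within a line turned above 0 for DST (0.16) and MAFK (0.059) in TE5, and in KYSE140 for DST (0.18), TXNRD1 (0.18), PFKP (0.10), AURKA (0.020), NDRG1 (0.14), MCM4 (0.014) and SPRED2 (0.16). Of the 1878, 111 passed the threshold, 83 of them with DESeq2. PODXL went from 2.89 to 0.17 when unlisted transcripts were given the gene of both neighbours, the 1 named gene that this moved by over 1.5-fold. Of 180 alternative medians of gene lists, 48 moved by more than the spread between the lines, 37 of them without scaling. Leaving out 1 library moved genes whose lines differ in size. The log2 difference of IVL ran from -0.88 (without KYSE140 shSOX2) to -3.17 (without TE5 shSOX2), that of KRT80 from 0.38 (without KYSE140 shTP63) to 1.89 (without TE5 shTP63), and that of JAG2 from -0.64 (without TE5 shTP63) to -2.03 (without KYSE140 shTP63). Without TE5 shSOX2, MMP1 stood at -5.54, RSAD2 at 1.16 and ALDH1A1 at 1.55, in place of -3.29, 2.31 and 2.39. Where 1 library was left out, the lone library of that shRNA was assumed to vary like the others. Depth limits genes with few counts, where filters moved the counts most, and 1 library per shRNA and line limits the rest.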
